A study of Mus musculus with 10 samples.

Results

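The genes described here encode enzymes and subunits that write, read or remove histone marks or move nucleosomes in mouse embryonic stem cells. They were chosen by symbol: the lysine methyltransferase, demethylase and acetyltransferase series Kmt, Setd, Kdm and Kat, the deacetylases Hdac and Sirt, the arginine methyltransferases Prmt, the Polycomb genes Ezh1, Ezh2, Eed, Suz12, Cbx and Pcgf, the PHD finger and bromodomain series Phf and Brd, the remodellers Smarc and Chd, and Wdr5. Of 83 symbols that matched, 81 had at least 1 TPM in 2 or more of the 10 libraries and are the members below. Hdac9, at 0.0239 to 0.230 TPM, and Phf24, at 0 to 0.0479, fell short. The least expressed member was Cbx8, at 0.312 to 2.38 TPM. Another 56 matching symbols stand in the lower lines of the deposited table, where symbols did not pass a check against their values, and are not used here, so most families are covered in part. The whole table holds 20494 lines, of which 14578 were tested.

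RNA was sequenced from an embryonic stem cell line labelled C57BL6X129S6F1, with 2 libraries in each of 5 culture conditions, and all 5 received 1000 IU mLIF. Serum-free N2B27 with 3 µM Chir99021, which inhibits the kinase GSK3, was the base of 4 of them. A2iL added 1.5 µM CGP77675, a Src inhibitor. Both 2iL-F and 2iL added 1 µM PD0325901, which inhibits the kinase MEK, and LCDM added 2 µM each of Dim and Mih. SL was KO-DMEM with 15% FBS and none of these compounds. Feeder cells are labelled as absent in 2iL-F and present in the other 4 conditions. The labels do not say whether the 2 libraries of a condition were grown as separate cultures, and the p-values rest on the difference within these pairs, which may be technical only.

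Stem cell identity and the feeder labels were checked with marker genes. Pou5f1 stood between 991 and 1367 TPM in all 10 libraries, and Nanog had 269.6 and 264 TPM in A2iL, 652 and 643 in 2iL-F, 606 and 729 in 2iL, 473 and 450.1 in LCDM, against 132 and 135 in SL. Of 18 listed stem cell markers, only 8 stand in lines whose symbols are used, and these 8 were tested. Of the 8, 4 rose and 1 fell in A2iL, and 6 rose and 1 fell in 2iL-F. In 2iL 5 rose and 3 fell, and in LCDM 6 rose and 0 fell. In this order 62.5%, 87.5%, 100% and 75% of them changed, beside 53.8%, 65.4%, 77.7% and 65.9% of all lines tested. Tdgf1 fell in A2iL (-0.51 ± 0.066), 2iL-F (-0.29 ± 0.066) and 2iL (-0.21 ± 0.066), and Klf4 (-0.25 ± 0.046) and Sall4 (-0.18 ± 0.045) fell in 2iL. The summed TPM of 30 fibroblast markers, which stand for the usual feeder cells, was 3140.2 and 3064 in A2iL, 5190.1 and 4977 in 2iL-F, 849 and 893 in 2iL and 1093 and 1074 in LCDM, against 4997 and 5251 in SL. In 2iL, labelled as having feeders, 7 of the 30 markers reached 1 TPM in both libraries, and 6 others, among them Lox, Dcn and Postn, were listed at 0 in both. Sparc and Fn1 made up most of their remaining sum. In 2iL-F, labelled as lacking feeders, 29 of 30 reached 1 TPM in both, with Col1a1 at 1058 and 974 TPM. The 2 labels therefore go against these markers, and "2iL" and "2iL-F" mean the libraries so labelled. In bulk RNA, fewer cells of a type and less RNA per cell cannot be told apart.

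DNA in the nucleus is wound around histones, and enzymes add methyl or acetyl groups to the histone tails. Methylation of lysine 27 of histone H3 by Polycomb repressive complex 2 (PRC2) is tied to silent genes, methylation of lysine 4 to active promoters, and acetylation to open chromatin, while deacetylases and demethylases remove such marks. Remodellers of the SWI/SNF, ISWI and CHD families use ATP to shift or evict nucleosomes. Mouse embryonic stem cells in serum are known for broad PRC2 marks at developmental genes and for a SWI/SNF form built on Smarca4 and Smarcc1.

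Against SL, more members were higher than lower in each of the 4 serum-free conditions, and within 2iL the largest changes were those of Prmt2, Setd6, Sirt4, Hdac6 and Hdac11. The mean fibroblast marker sum was 5124 TPM in SL, 871 in 2iL and 1083 in LCDM. In A2iL it was 3102 and in 2iL-F 5083. Its part in the changes of members from SL was not tested. Calls were made with limma on log2(TPM + 1) at an adjusted p below 0.05, and changes are differences on that scale ± SE. At low TPM this scale makes a change look smaller than it is. In A2iL 28 rose and 19 fell of 81, beside backgrounds of 21.9% and 31.9% of all 14578 lines tested, and without A2iL replicate 3 it was 21 higher and 12 lower. In 2iL-F 29 rose and 24 fell (28.1% and 37.3% of all lines), or 36 higher and 19 lower with median-of-ratios scaling. In 2iL 38 rose and 24 fell (36.7% and 40.9% of all lines), and in LCDM 40 rose and 19 fell (32.2% and 33.7%). As shares of the 81 members, 34.6% rose and 23.5% fell in A2iL, 35.8% rose and 29.6% fell in 2iL-F, 46.9% rose and 29.6% fell in 2iL and 49.4% rose and 23.5% fell in LCDM. In either direction, 58%, 65.4%, 76.5% and 72.8% of members passed in A2iL, 2iL-F, 2iL and LCDM, beside 53.8%, 65.4%, 77.7% and 65.9% of all lines, so the share changed was near the background.

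The median change of members and of all lines was 0.0035 and -0.068 in A2iL, 0.037 and -0.076 in 2iL-F, 0.19 and -0.043 in 2iL, and 0.17 and -0.00029 in LCDM. Changes of at least 1 on the log2 scale were few. They came to 0 higher and 1 lower member in A2iL (3.73% and 4.75% of all lines), 3 and 2 in 2iL-F (7.74% and 8.39%), 11 and 3 in 2iL (12.9% and 16.5%), and 8 and 2 in LCDM (6.03% and 10.2%). The F test over the 5 conditions passed for 78 members, or 96.3%, beside 90.1% of all lines, and Cbx5, Phf14 and Prmt3 were the 3 that did not pass. All 4 comparisons use the same 2 SL libraries, so their values are given side by side.

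**Figure D1:**
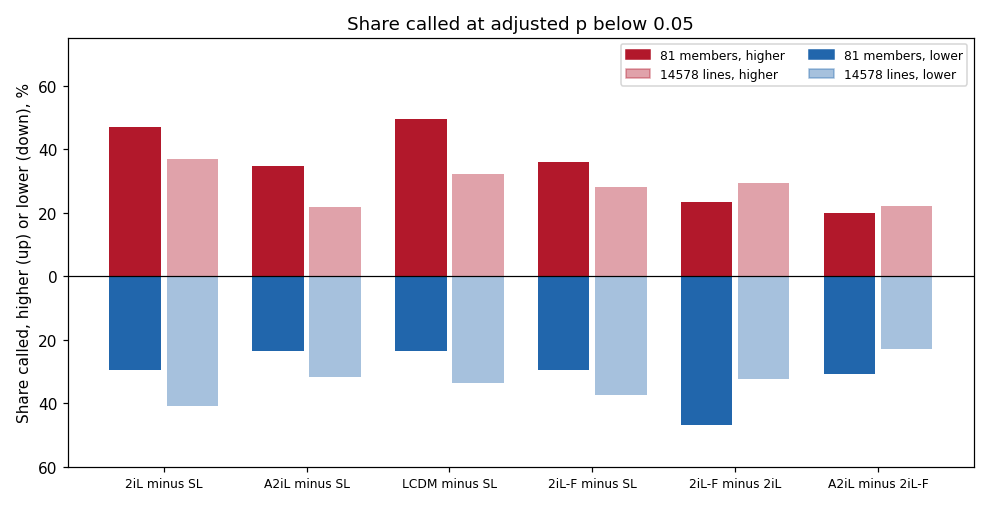
Share of the 81 members (dark bars) and of all 14578 lines tested (pale bars) called higher (up) or lower (down), in percent, for 6 comparisons. Members were more often higher than all lines in the 4 comparisons with SL, and 46.9% of members against 32.5% of lines were lower in 2iL-F than in 2iL.

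**Figure D2:**
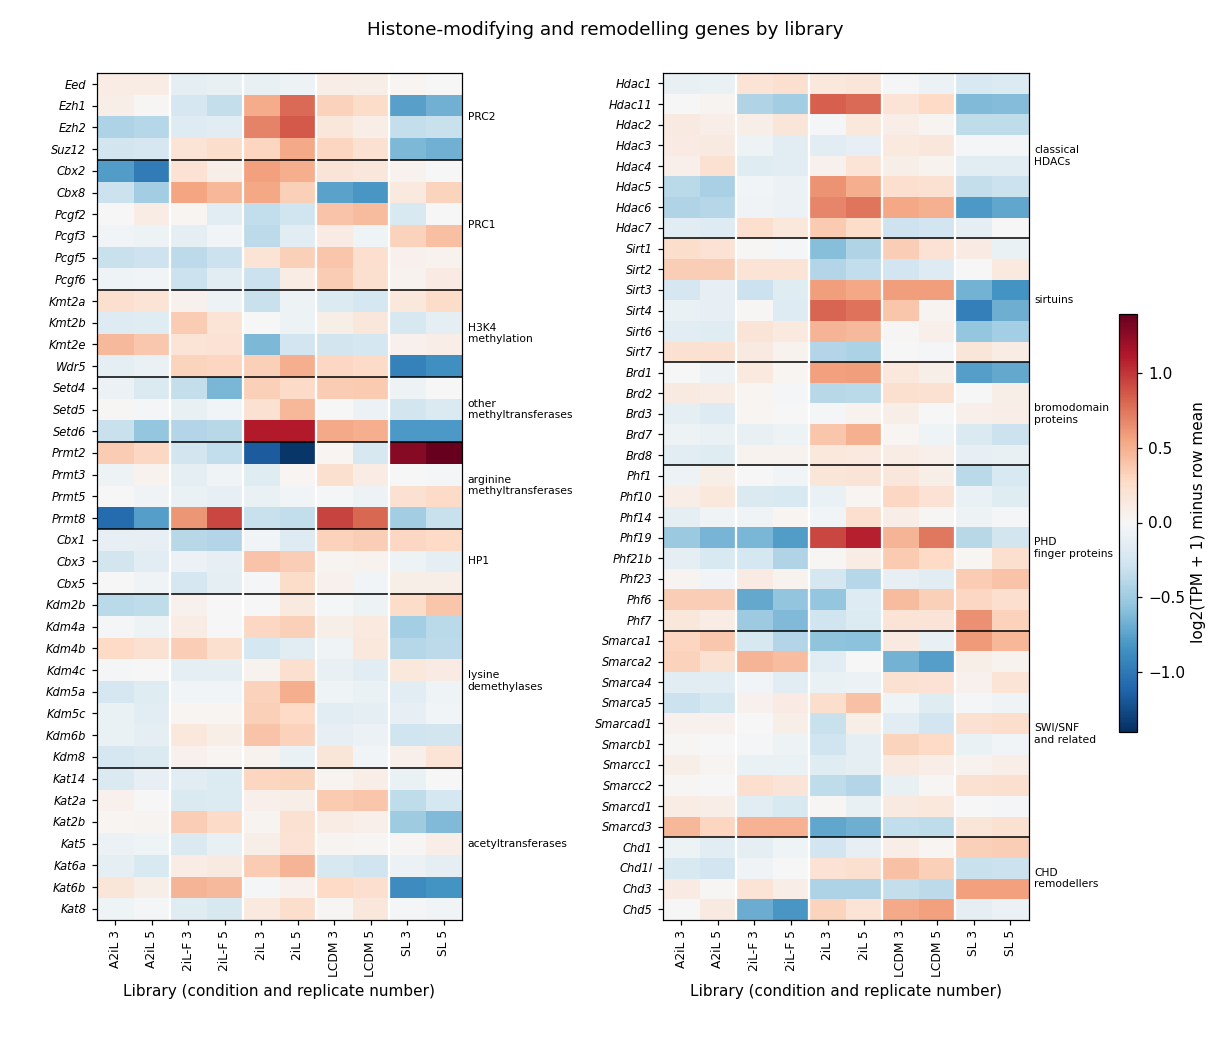
Each row is a member reported here and each column a library. Colour gives log2(TPM + 1) minus the row's mean over the 10 libraries, and black lines part the classes. Setd6, Phf19, Ezh2 and Hdac11 are highest in the libraries labelled 2iL, and Prmt2 is highest in SL and lowest in 2iL.

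Promoter windows are shown for 5 members that carry these patterns: Suz12 and Wdr5, higher in all 4 serum-free conditions, Setd6 and Phf19, which differ most between the libraries labelled 2iL-F and 2iL, and Prmt2, the member with the largest fall. Each runs from 250 bases before to 50 after the gene's start, 5′ to 3′ on the gene's strand, from RefSeq on GRCm38.p6, the assembly that mm10 names. Capitals mark matches, on either strand, to 4 motifs. The GC box was searched as GGGCGG and the CCAAT box by the letters of its name. The ETS motif was CCGGAAG, and the letters of the TATA box were TATAAA.
Suz12, chr11:79992856-79993155, plus strand: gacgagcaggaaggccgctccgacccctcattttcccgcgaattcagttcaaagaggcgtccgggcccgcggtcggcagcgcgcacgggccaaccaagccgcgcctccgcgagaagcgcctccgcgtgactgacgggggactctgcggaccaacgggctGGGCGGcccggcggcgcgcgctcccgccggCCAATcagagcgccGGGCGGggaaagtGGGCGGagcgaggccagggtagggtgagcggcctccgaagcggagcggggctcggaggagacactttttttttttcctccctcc
Wdr5, chr2:27514897-27515196, plus strand: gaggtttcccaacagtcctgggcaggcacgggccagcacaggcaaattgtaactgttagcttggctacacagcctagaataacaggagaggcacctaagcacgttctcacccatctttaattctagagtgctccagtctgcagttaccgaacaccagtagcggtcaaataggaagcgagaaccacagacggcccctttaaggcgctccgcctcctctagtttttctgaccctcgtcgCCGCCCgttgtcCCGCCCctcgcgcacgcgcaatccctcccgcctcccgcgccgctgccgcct
Setd6, chr8:95715663-95715962, plus strand: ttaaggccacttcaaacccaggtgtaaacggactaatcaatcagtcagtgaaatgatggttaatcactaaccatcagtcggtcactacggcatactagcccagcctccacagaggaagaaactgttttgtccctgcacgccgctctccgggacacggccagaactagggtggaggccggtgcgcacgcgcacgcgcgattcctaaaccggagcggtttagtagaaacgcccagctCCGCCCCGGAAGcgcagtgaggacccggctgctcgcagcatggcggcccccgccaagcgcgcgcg
Phf19, chr2:34913927-34914226, minus strand: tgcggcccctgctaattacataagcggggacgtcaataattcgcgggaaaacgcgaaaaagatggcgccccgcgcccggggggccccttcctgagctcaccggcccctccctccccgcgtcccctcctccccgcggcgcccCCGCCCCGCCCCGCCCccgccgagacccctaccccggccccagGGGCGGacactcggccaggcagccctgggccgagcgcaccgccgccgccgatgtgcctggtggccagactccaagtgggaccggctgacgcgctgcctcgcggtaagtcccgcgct
Prmt2, chr10:76237816-76238115, minus strand: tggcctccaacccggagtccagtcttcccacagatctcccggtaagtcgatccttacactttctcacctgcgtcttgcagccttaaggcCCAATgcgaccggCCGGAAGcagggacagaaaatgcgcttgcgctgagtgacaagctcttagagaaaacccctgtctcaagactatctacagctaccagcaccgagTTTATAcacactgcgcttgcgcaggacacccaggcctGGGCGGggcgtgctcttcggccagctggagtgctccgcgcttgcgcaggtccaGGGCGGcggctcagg

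Each of these windows held a GC box: 3 in Suz12, 2 in Wdr5, 1 in Setd6, 4 in Phf19, some of which overlap, and 2 in Prmt2. This is common, as 35.7% of all 32851 windows of this length and 69.6% of the 92 windows of members held one. A CCAAT box lay in the windows of Suz12 and Prmt2 (37.4% of all windows) and an ETS motif in those of Setd6, where it shares 1 base with the GC box, and Prmt2 (8.86%). Prmt2 alone of the 5 held the letters of the TATA box, on the opposite strand at position -55 from the start. They were found on either strand in 13.6% of all windows. An E-box (CACGTG, 7.15% of all windows), a CRE (TGACGTCA, 1.79%), an NRF1 motif (0.971%), and a STAT motif (TTCCNGGAA, 1.15%) were not found in these 5 windows. CpG dinucleotides numbered 41 in Suz12, 22 in Wdr5, 28 in Setd6, 38 in Phf19 and 20 in Prmt2, beside a median of 26 for members and 7 for all windows. Windows were found for 67 of the 81 members, and 1 of their 92 windows, that of Prmt2, held the TATA box letters on either strand.

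PRC2 consists of the catalytic subunit Ezh2 or its paralog Ezh1, the scaffold Suz12 and Eed, which binds the methylated histone. Suz12 and Ezh1 were higher than in SL in all 4 serum-free conditions, Ezh2 mainly in 2iL, and Eed changed little. Suz12 (chromosome 11, 79993106 to 80034123 of mm10) had 82.7 and 84.1 TPM in A2iL, 113 and 118 in 2iL-F, 122 and 144 in 2iL, 122 and 114 in LCDM, against 63.4 and 61.6 in SL. No library of the 4 conditions fell into the SL range. Its change was 0.41 ± 0.074 in A2iL, 0.87 ± 0.074 in 2iL-F, 1.07 ± 0.074 in 2iL and 0.91 ± 0.074 in LCDM, with adjusted p from 1.72e-06 in 2iL to 0.00176 in A2iL. Ezh2 (chromosome 6, 47530139 to 47595341) had 41.6 and 42.5 TPM in A2iL, 49.5 and 50.3 in 2iL-F, 91.8 and 103 in 2iL, 62.7 and 60.1 in LCDM, against 44.6 and 45.1 in SL. The 2iL libraries stood apart from all others, and those of A2iL lay below SL by an amount that did not pass (-0.091 ± 0.059). Its change was 1.10 ± 0.059 in 2iL, 0.44 ± 0.059 in LCDM and 0.15 ± 0.059 in 2iL-F. Where a lost call is given below with an adjusted p up to some value, that value is the largest over all alternative fits, other scalings and filters included. Not every call held when each of the 10 libraries was left out in turn: it was lost for Ezh2 in 2iL-F (8 of 10 fits, adjusted p up to 0.162 over all alternatives), Eed in 2iL-F (3 of 10 fits, adjusted p up to 0.333) and Eed in 2iL (9 of 10 fits, adjusted p up to 0.301).

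Ezh1 (chromosome 11, 101191115 to 101226463) had 9.05 and 8.58 TPM in A2iL, 7.05 and 6.54 in 2iL-F, 12.6 and 15.4 in 2iL, 10.8 and 10.4 in LCDM, against 4.61 and 4.95 in SL. SL was lowest and 2iL highest with no overlap, and the changes were 0.76 ± 0.094 in A2iL, 0.43 ± 0.094 in 2iL-F, 1.37 ± 0.094 in 2iL and 1.00 ± 0.094 in LCDM. Eed (chromosome 7, 89954654 to 89980983) stayed between 74.0 and 87.0 TPM in the 10 libraries. It fell by 0.12 in 2iL-F and by 0.10 in 2iL on the log2 scale, and the values of 0.091 ± 0.038 in A2iL and 0.076 ± 0.038 in LCDM did not pass. The ratio of Ezh2 to Eed TPM was 0.481 and 0.489 in A2iL, 0.669 and 0.671 in 2iL-F, 1.23 and 1.35 in 2iL, 0.730 and 0.702 in LCDM, against 0.545 and 0.559 in SL. For Suz12 to Eed it was 0.957 and 0.967 in A2iL, 1.53 and 1.57 in 2iL-F, 1.63 and 1.88 in 2iL, 1.42 and 1.34 in LCDM, against 0.775 and 0.764 in SL. Ezh1 to Ezh2 gave 0.218 and 0.202 in A2iL, 0.142 and 0.130 in 2iL-F, 0.137 and 0.1495 in 2iL, 0.173 and 0.172 in LCDM, against 0.103 and 0.110 in SL, highest in A2iL. These ratios were not tested.

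**Figure D3:**
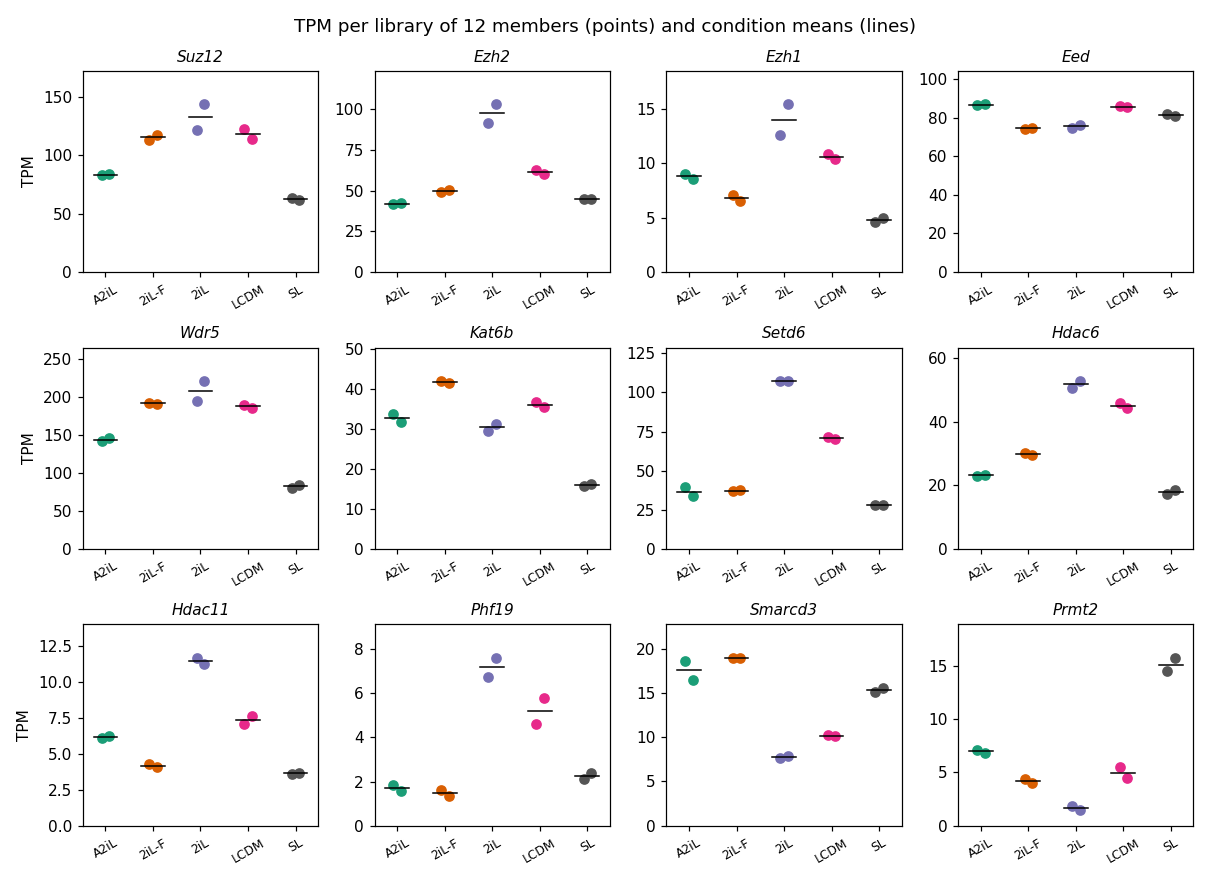
TPM of 12 members in each library (points, 2 per condition) with the condition mean (line). Suz12, Wdr5 and Kat6b lie above SL in all 8 serum-free libraries and Prmt2 below it, while Ezh2, Setd6, Hdac11 and Phf19 are highest in 2iL.

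**Figure D4:**
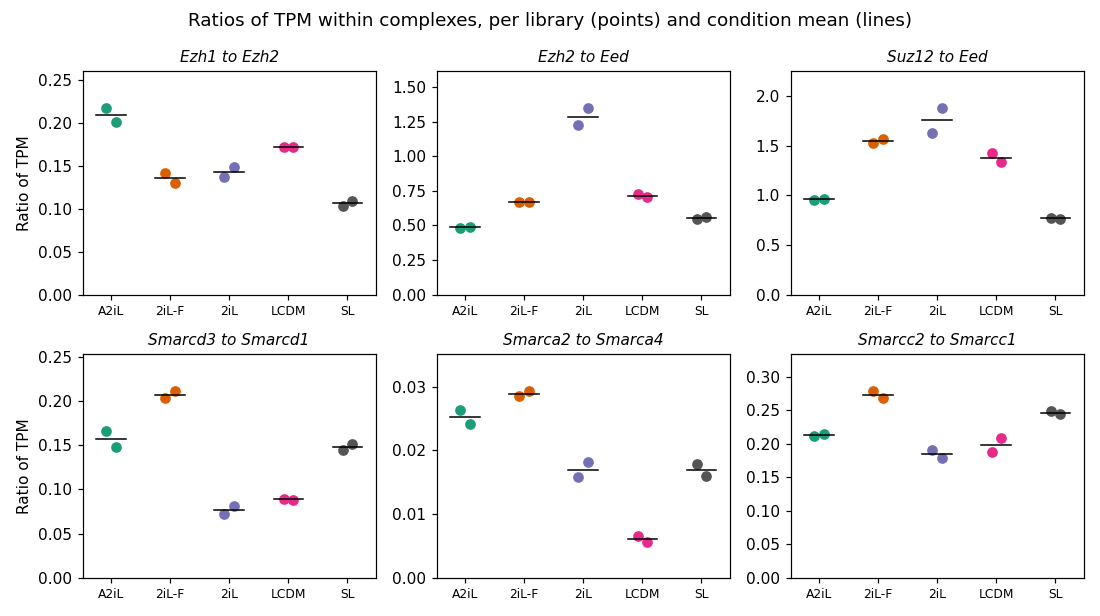
Ratio of TPM between subunits or paralogs of a complex, per library (points) and as condition mean (line). Ezh2 to Eed exceeds 1.2 in both 2iL libraries and is below 0.75 in the others, and Smarcd3 to Smarcd1 is lowest in 2iL and LCDM.

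Polycomb-like proteins recruit PRC2 to chromatin, and 2 of them are members. Phf19 (chromosome 2, 34893757 to 34914026) had 1.83 and 1.58 TPM in A2iL, 1.60 and 1.35 in 2iL-F, 6.75 and 7.60 in 2iL, 4.61 and 5.78 in LCDM, against 2.10 and 2.39 in SL. It was high in 2iL and LCDM and low in A2iL, 2iL-F and SL, with changes of 1.33 ± 0.12 in 2iL (adjusted p = 8.74e-06) and 0.93 ± 0.12 in LCDM. In 2iL-F it fell by 0.39 (adjusted p = 0.0171), and in A2iL the value of -0.26 ± 0.12 did not pass. Phf1 rose in all 4 conditions, by 0.42 in LCDM and 0.47 in 2iL, but 39.3% of its exon bases are shared with genes on the opposite strand, and the labels do not state that strand was used in counting. Leaving out 1 library ended the call for Phf19 in 2iL-F (2 of 10 fits, adjusted p up to 0.0999), Phf1 in A2iL (2 of 10 fits, adjusted p up to 0.0836) and Phf1 in 2iL-F (2 of 10 fits, adjusted p up to 0.0911).

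Polycomb repressive complex 1 (PRC1) ubiquitinates histone H2A, and its Cbx subunits read the PRC2 mark while Pcgf subunits define its variants. Of 6 PRC1 members, 0 rose and 4 fell in A2iL, 0 rose and 2 fell in 2iL-F, 1 rose and 1 fell in 2iL and 2 rose and 2 fell in LCDM. Called in either direction were 66.7%, 33.3%, 33.3% and 66.7% of them in A2iL, 2iL-F, 2iL and LCDM. For all lines it was 53.8%, 65.4%, 77.7% and 65.9%, so the share was below the background in 2iL-F and 2iL. Cbx2 (chromosome 11, 119022962 to 119031270) had 8.94 and 7.64 TPM in A2iL, 18.6 and 17.0 in 2iL-F, 24.4 and 23.3 in 2iL, 18.3 and 18.1 in LCDM, against 16.6 and 16.1 in SL. A2iL was lowest, without overlap, at -0.91 ± 0.077 against SL, and 2iL was highest, at 0.52 ± 0.077. Cbx8 had 0.866 and 0.646 TPM in A2iL, 2.38 and 2.16 in 2iL-F, 2.34 and 1.91 in 2iL, 0.370 and 0.312 in LCDM, against 1.53 and 1.86 in SL. It fell by 1.00 in LCDM and by 0.62 in A2iL on the log2 scale, all SL libraries being under 2 TPM. Pcgf2, of canonical PRC1, passed in LCDM (0.54 ± 0.084), and in 2iL, 2iL-F and A2iL its values of -0.20, 0.053 and 0.17 did not pass. Pcgf3, of a variant complex, fell in all 4 conditions, most in 2iL (-0.63 ± 0.087). Its relative Pcgf5, at 1.30 to 2.87 TPM, fell in A2iL and 2iL-F and rose in LCDM. Pcgf6, which is characteristic of stem and germ cells, had 53.0 and 53.5 TPM in A2iL, 44.4 and 49.6 in 2iL-F, 44.5 and 59.4 in 2iL, 70.8 and 64.7 in LCDM, against 56.8 and 59.7 in SL and passed in none of the 4. Without 1 library, the call was lost for Pcgf3 in LCDM (2 of 10 fits), Pcgf5 in A2iL (1 of 10 fits) and Pcgf5 in LCDM (3 of 10 fits).

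Among the H3K4 methylation members, Wdr5, a core subunit of the SET1 and MLL methyltransferase complexes, rose strongly while Kmt2a, Kmt2b and Kmt2e moved less. Kmt2c, Kmt2d, Setd1a and Setd1b were not among the members, so most catalytic subunits were not read. Wdr5 (chromosome 2, 27515157 to 27536535) had 142 and 146 TPM in A2iL, 193 and 191 in 2iL-F, 195 and 221 in 2iL, 190.2 and 186 in LCDM, against 80.2 and 84.7 in SL. SL was lowest without overlap and A2iL lay between SL and the rest. Changes were 0.80 ± 0.060 in A2iL, 1.21 ± 0.060 in 2iL-F, 1.32 ± 0.060 in 2iL and 1.18 ± 0.060 in LCDM, with adjusted p = 1.26e-07 in 2iL. Kmt2b, an MLL enzyme, had 41.7 and 42.1 TPM in A2iL, 60.7 and 54.2 in 2iL-F, 47.1 and 45.1 in 2iL, 50.2 and 53.1 in LCDM, against 40.3 and 43.1 in SL, and passed in 2iL-F (0.45 ± 0.065) and LCDM (0.30 ± 0.065). Kmt2a, its relative, had 6.11 to 9.56 TPM and fell in 2iL (-0.40) and LCDM (-0.43). Kmt2e, placed in this class by symbol and not by known activity, fell in the same conditions (-0.53 and -0.33) and rose in A2iL (0.34). Calls lost in fits without 1 library were those of Kmt2e in A2iL (4 of 10 fits, adjusted p up to 0.123) and Kmt2e in LCDM (4 of 10 fits, adjusted p up to 0.0984).

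Of the other lysine methyltransferase genes, Setd6, known for methylating the NF-kappaB subunit RelA, had the largest increase of any member. Setd6 (chromosome 8, 95715881 to 95719010) had 39.3 and 33.5 TPM in A2iL, 36.7 and 37.4 in 2iL-F, 107 and 107 in 2iL, 71.8 and 70.4 in LCDM, against 27.8 and 27.8 in SL. The 2iL libraries were highest and those of LCDM second, and the libraries of A2iL and 2iL-F lay between these and SL. Changes were 0.37 ± 0.068 in A2iL, 0.40 ± 0.068 in 2iL-F, 1.91 ± 0.068 in 2iL and 1.32 ± 0.068 in LCDM, with adjusted p = 2.62e-08 in 2iL. Setd5 rose in 2iL (0.57 ± 0.081) and A2iL (0.22 ± 0.081). Setd4 rose in 2iL (0.34 ± 0.10) and LCDM (0.40 ± 0.10) and fell in 2iL-F (-0.45 ± 0.10), at 3.44 to 7.92 TPM. Leaving out 1 library ended the call for Setd5 in A2iL (8 of 10 fits, adjusted p up to 0.173), Setd4 in 2iL (2 of 10 fits, adjusted p up to 0.0747) and Setd4 in LCDM (1 of 10 fits, adjusted p up to 0.0503).

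Arginine methyltransferase genes had the largest fall. Prmt2 (chromosome 10, 76207222 to 76237865), a weakly active family member and nuclear receptor coactivator, had 7.12 and 6.81 TPM in A2iL, 4.34 and 4.03 in 2iL-F, 1.84 and 1.49 in 2iL, 5.49 and 4.44 in LCDM, against 14.5 and 15.7 in SL. SL was highest and 2iL lowest, and no 2 conditions overlapped. Changes were -1.01 ± 0.11 in A2iL, -1.63 ± 0.11 in 2iL-F, -2.60 ± 0.11 in 2iL and -1.44 ± 0.11 in LCDM, with adjusted p = 6.38e-08 in 2iL and 7.98e-05 in A2iL. Prmt5, the main enzyme of symmetric arginine dimethylation and needed by stem cells, had 115 and 111 TPM in A2iL, 107 and 106 in 2iL-F, 108 and 112 in 2iL, 114 and 109.8 in LCDM, against 133 and 139 in SL. It fell in all 4 conditions, by 0.26 to 0.34. Prmt8, best known from brain, had 0.459 and 0.805 TPM in A2iL, 3.71 and 4.90 in 2iL-F, 1.48 and 1.42 in 2iL, 4.93 and 4.37 in LCDM, against 1.19 and 1.48 in SL, and rose in LCDM (1.27 ± 0.14) and 2iL-F (1.18 ± 0.14). In A2iL it fell by 0.52. Prmt3, which acts on a ribosomal protein, had 19.9 to 26.4 TPM and passed in none. The call for Prmt8 in A2iL was lost in 2 of the 10 fits without 1 library.

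The 3 genes of heterochromatin protein 1 (HP1), which reads methylated lysine 9 of histone H3, did not move together. Cbx1 (chromosome 11, 96789127 to 96808640), the most abundant, had 114 and 115 TPM in A2iL, 94.9 and 93.4 in 2iL-F, 121 and 109 in 2iL, 155 and 158 in LCDM, against 152 and 151 in SL. It fell in 2iL-F (-0.68 ± 0.051), 2iL (-0.40 ± 0.051) and A2iL (-0.40 ± 0.051), and in LCDM it lay slightly above SL (0.046 ± 0.051, not passed). Cbx3 rose in 2iL (0.47 ± 0.050) and LCDM (0.15 ± 0.050), and 8 annotated pseudogenes may share its reads. Cbx5 fell in 2iL-F (-0.26 ± 0.089), passed in none of the other 3, and did not pass the F test. Summed over the 3 genes, TPM was 253 and 255 TPM in A2iL, 229 and 232 in 2iL-F, 292 and 295 in 2iL, 311 and 308 in LCDM, against 304 and 299 in SL. The call for Cbx3 in LCDM was lost in 3 of 10 fits without 1 library and with median-of-ratios scaling. That for Cbx5 in 2iL-F was lost in 3 of 10 such fits and under both other scalings.

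Demethylase genes took no common direction. Of 8 members, 3 rose and 2 fell in A2iL, 3 rose and 2 fell in 2iL-F, 4 rose and 1 fell in 2iL and 3 rose and 2 fell in LCDM. In each condition 62.5% passed in either direction, beside 53.8%, 65.4%, 77.7% and 65.9% of all lines in the same order. Kdm4a and Kdm4b, which act on lysines 9 and 36 of histone H3, were higher in at least 3 of the 4 conditions. Kdm4a had 47.2 and 45.4 TPM in A2iL, 51.4 and 47.9 in 2iL-F, 58.8 and 60.7 in 2iL, 50.6 and 52.6 in LCDM, against 34.2 and 36.7 in SL, all 8 serum-free libraries above SL, with changes of 0.38 in A2iL, 0.47 in 2iL-F, 0.74 in 2iL and 0.53 in LCDM. Kdm4b rose by 0.67 ± 0.079 in 2iL-F, 0.63 ± 0.079 in A2iL and 0.43 ± 0.079 in LCDM, and 0.19 ± 0.079 in 2iL did not pass. Kdm4c, of the same subfamily, fell in LCDM and 2iL-F (-0.27 and -0.26). Kdm6b, which removes the PRC2 mark, had 36.8 and 35.9 TPM in A2iL, 43.6 and 41.5 in 2iL-F, 52.2 and 49.2 in 2iL, 36.3 and 36.9 in LCDM, against 32.1 and 32.8 in SL and rose in all 4 conditions, by 0.63 ± 0.050 in 2iL and 0.38 ± 0.050 in 2iL-F. Leaving out 1 library ended the call for Kdm6b in A2iL (4 of 10 fits, adjusted p up to 0.124) and Kdm6b in LCDM (2 of 10 fits, adjusted p up to 0.0778).

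The lysine 4 demethylase genes Kdm5a and Kdm5c rose in 2iL, by 0.52 ± 0.072 and 0.39 ± 0.046, and passed in none of the other 3. Kdm5c, the highest demethylase gene, had 51.5 and 49.7 TPM in A2iL, 56.1 and 56.2 in 2iL-F, 69.9 and 67.3 in 2iL, 49.8 and 50.5 in LCDM, against 50.8 and 53.6 in SL. Kdm2b, which brings a variant PRC1 to CpG islands, had 15.0 and 15.3 TPM in A2iL, 20.6 and 19.9 in 2iL-F, 19.7 and 21.9 in 2iL, 19.4 and 18.8 in LCDM, against 23.9 and 26.3 in SL. It fell in all 4 conditions, most in A2iL (-0.69 ± 0.068). Kdm8 fell in A2iL (-0.35) and passed in no other. Fits without 1 library lost the calls of Kdm2b in 2iL (lost in 1 of 10 fits) and Kdm8 in A2iL (2 of 10 fits).

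Of 7 acetyltransferase genes, 3 rose and 0 fell in A2iL, 3 rose and 2 fell in 2iL-F, 6 rose and 0 fell in 2iL and 3 rose and 0 fell in LCDM. For comparison, 21.9% and 31.9% of all lines were called higher and lower in A2iL, 28.1% and 37.3% in 2iL-F, 36.7% and 40.9% in 2iL and 32.2% and 33.7% in LCDM. Kat6b (chromosome 14, 21481434 to 21672478), the catalytic subunit of a MYST family complex, had 33.7 and 31.8 TPM in A2iL, 41.9 and 41.4 in 2iL-F, 29.5 and 31.2 in 2iL, 36.6 and 35.3 in LCDM, against 15.8 and 16.3 in SL. Every serum-free library was well above SL and 2iL-F was highest, with changes of 0.99 ± 0.053 in A2iL, 1.32 ± 0.053 in 2iL-F, 0.88 ± 0.053 in 2iL and 1.12 ± 0.053 in LCDM. Its relative Kat6a rose in 2iL (0.52 ± 0.059) and 2iL-F (0.22 ± 0.059). Kat2a (GCN5) had 94.9 and 91.7 TPM in A2iL, 79.1 and 79.4 in 2iL-F, 95.8 and 96.6 in 2iL, 118 and 119.7 in LCDM, against 71.1 and 76.9 in SL, highest in LCDM (0.68 ± 0.047). Its paralog Kat2b (PCAF) rose in all 4 conditions by 0.59 to 0.87. Kat8, which acetylates lysine 16 of histone H4, had 17.9 to 25.2 TPM, rose in 2iL (0.22) and fell in 2iL-F (-0.17). Kat5 (TIP60) fell in 2iL-F (-0.21), and Kat14, of the ATAC complex, rose in 2iL (0.35). Annotated pseudogenes of Kat6b and Kat2b may share their reads, and Kat5 and Kat14 share 12.1% and 14.7% of exon bases with another gene. Calls lost in fits without 1 library were those of Kat6a in 2iL-F (2 of 10 fits, adjusted p up to 0.0656), Kat8 in 2iL-F (6 of 10 fits, adjusted p up to 0.196), Kat8 in 2iL (2 of 10 fits, adjusted p up to 0.0686) and Kat5 in 2iL-F (2 of 10 fits, adjusted p up to 0.088).

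Of 8 classical deacetylase genes, 6 rose and 0 fell in A2iL, 5 rose and 0 fell in 2iL-F, 7 rose and 1 fell in 2iL and 7 rose and 1 fell in LCDM. The same shares of all lines apply as for the acetyltransferases, and the falls were those of Hdac3 in 2iL and Hdac7 in LCDM. Hdac1 (chromosome 4, 129516104 to 129542713), a catalytic subunit of several corepressors and the most abundant member of all, had 214 and 215 TPM in A2iL, 263 and 269 in 2iL-F, 254 and 258 in 2iL, 225 and 216 in LCDM, against 197 and 201 in SL. Each serum-free library was above SL, with changes of 0.11 ± 0.039 in A2iL, 0.41 ± 0.039 in 2iL-F, 0.36 ± 0.039 in 2iL and 0.15 ± 0.039 in LCDM. Hdac2, its paralog, had 78.4 and 76.2 TPM in A2iL, 75.8 and 80.96 in 2iL-F, 70.2 and 79.4 in 2iL, 76.2 and 73.3 in LCDM, against 55.8 and 55.7 in SL and changed by a like amount in each condition, from 0.41 in 2iL to 0.48 in 2iL-F. Hdac3, of the NCoR corepressor, moved by at most 0.17. Summed TPM of the 8 genes was 391 and 390.2 TPM in A2iL, 443 and 450.0 in 2iL-F, 466 and 480.0 in 2iL, 430.5 and 419 in LCDM, against 339 and 345 in SL. Leaving out 1 library ended the call for Hdac3 in A2iL (4 of 10 fits, adjusted p up to 0.122), Hdac3 in 2iL (7 of 10 fits, adjusted p up to 0.229), Hdac3 in LCDM (2 of 10 fits, adjusted p up to 0.0678), Hdac7 in 2iL-F (2 of 10 fits, adjusted p up to 0.0882), Hdac7 in LCDM (3 of 10 fits, adjusted p up to 0.159), Hdac1 in A2iL (8 of 10 fits, adjusted p up to 0.177) and Hdac1 in LCDM (2 of 10 fits, adjusted p up to 0.0761).

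Hdac6 (chromosome X, 7930120 to 7947889), a mostly cytoplasmic enzyme that acts on tubulin, had 23.0 and 23.4 TPM in A2iL, 30.1 and 29.5 in 2iL-F, 50.8 and 52.8 in 2iL, 45.8 and 44.4 in LCDM, against 17.3 and 18.5 in SL. All conditions were separate, in the order 2iL, LCDM, 2iL-F, A2iL and SL, with changes of 0.36 ± 0.050 in A2iL, 0.70 ± 0.050 in 2iL-F, 1.48 ± 0.050 in 2iL and 1.29 ± 0.050 in LCDM. Hdac11 (chromosome 6, 91156665 to 91174692), the only class IV enzyme, had 6.11 and 6.24 TPM in A2iL, 4.30 and 4.04 in 2iL-F, 11.6 and 11.2 in 2iL, 7.07 and 7.61 in LCDM, against 3.60 and 3.65 in SL. It rose in 2iL (1.43 ± 0.067), LCDM (0.85 ± 0.067) and A2iL (0.63 ± 0.067), and 0.16 ± 0.067 in 2iL-F did not pass. For Hdac11, 17.9% of exon bases are shared with genes on the opposite strand. Of the class IIa genes, Hdac5 rose most (0.88 ± 0.060 in 2iL and 0.54 ± 0.060 in LCDM). Hdac4, with 22.4% of exon bases shared with a gene on the opposite strand, rose by 0.23 to 0.30 in LCDM, 2iL and A2iL, and Hdac7 rose in 2iL (0.37) and 2iL-F (0.25) and fell in LCDM (-0.22). Hdac4 lost its call in A2iL in 1 of 10 fits without 1 library, and in LCDM in 4 of 10.

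Sirtuins are deacylases that depend on NAD+. The genes of the mitochondrial Sirt3 and Sirt4 and of the nuclear Sirt6 rose in all 4 conditions, and the others took no common direction. Sirt3 (chromosome 7, 140863666 to 140882309) had 5.72 and 6.28 TPM in A2iL, 5.42 and 6.02 in 2iL-F, 10.9 and 10.5 in 2iL, 10.9 and 10.9 in LCDM, against 3.97 and 3.41 in SL. Its 4 libraries of 2iL and LCDM were alike and well above the rest, at 1.32 ± 0.084 and 1.34 ± 0.084 against SL. It shares 12.7% of its exon bases with genes on the opposite strand. Sirt4 (chromosome 5, 115478010 to 115484725) had 5.92 and 5.83 TPM in A2iL, 6.48 and 5.50 in 2iL-F, 11.95 and 11.5 in 2iL, 8.64 and 6.55 in LCDM, against 2.81 and 3.61 in SL, with 1.60 ± 0.13 in 2iL and 1.03 ± 0.13 in LCDM. Sirt6, which deacetylates lysine 9 of histone H3, had 26.8 and 26.4 TPM in A2iL, 33.7 and 32.6 in 2iL-F, 41.7 and 41.0 in 2iL, 29.99 and 31.2 in LCDM, against 20.02 and 21.1 in SL, with 2iL highest at 0.98 ± 0.049. Sirt1 fell in 2iL (-0.52 ± 0.087) and rose in LCDM (0.26 ± 0.087). Sirt2, a tubulin deacetylase, fell in 2iL (-0.44 ± 0.065) and LCDM (-0.29 ± 0.065) and rose in A2iL (0.28 ± 0.065). Sirt7, a nucleolar enzyme, fell in 2iL (-0.56 ± 0.060). Calls lost in fits without 1 library were those of Sirt1 in LCDM (2 of 10 fits, adjusted p up to 0.175) and Sirt2 in A2iL (1 of 10 fits, adjusted p up to 0.0528).

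Bromodomain proteins read acetylated histones. Brd1 (chromosome 15, 88687034 to 88734233), a scaffold of MYST acetyltransferase complexes, had 40.9 and 39.1 TPM in A2iL, 45.3 and 42.0 in 2iL-F, 61.9 and 62.2 in 2iL, 45.6 and 43.7 in LCDM, against 23.7 and 24.7 in SL. SL was lowest without overlap and 2iL highest, with changes of 0.70 ± 0.054 in A2iL, 0.82 ± 0.054 in 2iL-F, 1.32 ± 0.054 in 2iL and 0.86 ± 0.054 in LCDM. Brd2, which binds acetylated histone H4, had 137 and 135 TPM in A2iL, 128 and 124 in 2iL-F, 95.7 and 96.4 in 2iL, 146 and 145 in LCDM, against 126 and 133 in SL. It fell in 2iL (-0.42 ± 0.042) and rose in LCDM (0.17 ± 0.042). Brd3, its relative, had 30.7 to 37.3 TPM and fell in A2iL (-0.24 ± 0.049). Brd7, of the PBAF remodeller, rose in all 4, most in 2iL (0.69 ± 0.061). Brd8, of the TIP60 complex, rose in 2iL, LCDM and 2iL-F by 0.16 to 0.25. Leaving out 1 library ended the call for Brd2 in LCDM (1 of 10 fits, adjusted p up to 0.05), Brd7 in A2iL (5 of 10 fits, adjusted p up to 0.205), Brd7 in 2iL-F (5 of 10 fits, adjusted p up to 0.198), Brd7 in LCDM (2 of 10 fits, adjusted p up to 0.0646) and Brd8 in 2iL-F (3 of 10 fits, adjusted p up to 0.0606).

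Of the 6 other PHD finger genes, Phf23 and Phf7 fell in all 4 conditions. Phf23, the most abundant, had 54.5 and 51.7 TPM in A2iL, 57.3 and 54.8 in 2iL-F, 44.7 and 39.9 in 2iL, 49.0 and 47.4 in LCDM, against 68.0 and 70.3 in SL and fell by 0.30 to 0.70. Phf6, a chromatin protein mutated in leukaemia in humans, had 11.7 and 11.7 TPM in A2iL, 5.08 and 5.83 in 2iL-F, 5.86 and 7.82 in 2iL, 12.6 and 11.6 in LCDM, against 11.3 and 10.7 in SL. It fell under both labels of the MEK inhibitor medium (-0.90 ± 0.12 in 2iL-F and -0.63 ± 0.12 in 2iL), while 0.081 ± 0.12 in A2iL and 0.13 ± 0.12 in LCDM did not pass. Phf7, best known from testis, fell in all 4, at 0.925 to 3.59 TPM. Phf10, of PBAF, rose in A2iL (0.25) and LCDM (0.37). Phf21b, at 1.72 to 3.69 TPM, fell in A2iL and 2iL-F, and Phf14 passed in none. Phf7 lost its call in A2iL in 3 of 10 fits without 1 library, and in LCDM in 9 of 10. In A2iL the call was also lost for Phf10 (2 of 10 fits) and Phf21b (3 of 10 fits).

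Of 10 SWI/SNF, ISWI and related members, 1 rose and 3 fell in A2iL, 2 rose and 4 fell in 2iL-F, 1 rose and 6 fell in 2iL and 2 rose and 5 fell in LCDM. In this order 30%, 40%, 60% and 50% fell, beside 31.9%, 37.3%, 40.9% and 33.7% of all lines. The shares that rose were 10%, 20%, 10% and 20%, beside 21.9%, 28.1%, 36.7% and 32.2% of all lines. Smarca4, Smarcc1 and Smarcd1, of the stem cell form, changed by at most 0.28. Smarca4 (BRG1, chromosome 9, 21616169 to 21704230) had 101 and 99.5 TPM in A2iL, 108 and 101 in 2iL-F, 104 and 106 in 2iL, 129 and 128 in LCDM, against 116 and 128 in SL, and its falls in A2iL (-0.28 ± 0.055), 2iL-F (-0.22 ± 0.055) and 2iL (-0.21 ± 0.055) were small. Smarcc1 (BAF155) had 101 and 98.3 TPM in A2iL, 89.6 and 89.6 in 2iL-F, 84.7 and 86.9 in 2iL, 104 and 102 in LCDM, against 98.9 and 102 in SL, and fell in 2iL (-0.22 ± 0.040) and 2iL-F (-0.16 ± 0.040). Smarcd1 (BAF60A), with 12.7% of exon bases shared with genes on the opposite strand, stayed between 89.9 and 115 TPM. Smarcb1, a core subunit, rose in LCDM (0.36 ± 0.060) and passed in no other. Calls lost in fits without 1 library were those of Smarca4 in 2iL-F (2 of 10 fits, adjusted p up to 0.0552), Smarca4 in 2iL (1 of 10 fits, adjusted p up to 0.0521), Smarcc1 in 2iL-F (1 of 10 fits, adjusted p up to 0.0901), Smarcd1 in 2iL-F (2 of 10 fits, adjusted p up to 0.214) and Smarcd1 in LCDM (4 of 10 fits, adjusted p up to 0.1).

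The paralogs that mark SWI/SNF of differentiated cells varied more. Smarcd3 (BAF60C, chromosome 5, 24590818 to 24624411) had 18.6 and 16.5 TPM in A2iL, 18.9 and 18.9 in 2iL-F, 7.62 and 7.88 in 2iL, 10.2 and 10.1 in LCDM, against 15.1 and 15.5 in SL. It fell in 2iL (-0.90 ± 0.066) and LCDM (-0.55 ± 0.066), the conditions with the lowest fibroblast marker sums, and rose in 2iL-F (0.29 ± 0.066) and A2iL (0.18 ± 0.066). The part of fibroblast RNA in this was not tested, and 48.2% of its exon bases are shared with genes on the opposite strand. Smarcd3 to Smarcd1 gave 0.166 and 0.148 in A2iL, 0.203 and 0.211 in 2iL-F, 0.0725 and 0.0812 in 2iL, 0.0896 and 0.0875 in LCDM, against 0.145 and 0.151 in SL. Smarcc2 (BAF170) had 21.4 and 21.1 TPM in A2iL, 24.9 and 24.0 in 2iL-F, 16.2 and 15.5 in 2iL, 19.5 and 21.3 in LCDM, against 24.5 and 24.8 in SL and fell most in 2iL (-0.61 ± 0.057). Smarca2 (BRM), at 0.718 to 3.09 TPM, fell in LCDM (-0.78 ± 0.092) and rose in 2iL-F (0.39 ± 0.092). Its ratio to Smarca4 was at most 0.0293 in every library. Leaving out 1 library ended the call for Smarcd3 in A2iL (7 of 10 fits, adjusted p up to 0.281) and Smarcc2 in A2iL (4 of 10 fits, adjusted p up to 0.135).

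In the ISWI family, Smarca5 (SNF2H) had 60.9 and 63.4 TPM in A2iL, 78.9 and 81.7 in 2iL-F, 89.9 and 101 in 2iL, 72.5 and 66.9 in LCDM, against 74.6 and 73.1 in SL, and rose in 2iL (0.36 ± 0.064) and fell in A2iL (-0.24 ± 0.064), with a pseudogene that may share its reads. Its relative Smarca1 (SNF2L), at 1.08 to 3.65 TPM, fell in 2iL (-1.09 ± 0.11), 2iL-F (-0.84 ± 0.11) and LCDM (-0.52 ± 0.11). Smarcad1, a remodeller that aids heterochromatin maintenance, fell in 2iL (-0.35) and LCDM (-0.45). Without 1 library, the call was lost for Smarca5 in A2iL (2 of 10 fits) and Smarcad1 in 2iL (3 of 10 fits).

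Of the 4 CHD remodeller genes, Chd3 and Chd1 fell in all 4 conditions and Chd1l rose in 3. Chd3 (chromosome 11, 69343273 to 69369406), an ATPase of the NuRD corepressor, had 20.4 and 18.9 TPM in A2iL, 21.6 and 20.1 in 2iL-F, 13.6 and 13.6 in 2iL, 14.7 and 14.3 in LCDM, against 28.3 and 28.5 in SL. SL was highest without overlap, and the changes were -0.51 ± 0.058 in A2iL, -0.43 ± 0.058 in 2iL-F, -1.01 ± 0.058 in 2iL and -0.93 ± 0.058 in LCDM. Chd1, which keeps stem cell chromatin open, had 34.1 and 32.5 TPM in A2iL, 32.7 and 34.5 in 2iL-F, 29.8 and 33.2 in 2iL, 38.4 and 36.7 in LCDM, against 45.7 and 46.1 in SL, with changes of -0.45 in A2iL, -0.44 in 2iL-F, -0.53 in 2iL and -0.28 in LCDM. Chd1l, a remodeller activated by poly(ADP-ribose), rose in LCDM (0.68 ± 0.051), 2iL (0.52 ± 0.051) and 2iL-F (0.27 ± 0.051). Chd5, a NuRD paralog best known from neurons, had 2.69 and 3.03 TPM in A2iL, 1.29 and 1.10 in 2iL-F, 3.61 and 3.23 in 2iL, 4.34 and 4.50 in LCDM, against 2.41 and 2.51 in SL. It rose in 2iL (0.35 ± 0.090) and LCDM (0.65 ± 0.090) and fell in 2iL-F (-0.66 ± 0.090).

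Comparison of 2iL-F with 2iL asks how libraries of the same stated medium differ between the 2 feeder labels. Of 81 members 19 rose and 38 fell in 2iL-F, beside 29.2% and 32.5% of all lines, and 70.4% of members passed in either direction, beside 61.7%. Changes of at least 1 numbered 2 higher and 4 lower members (8.44% and 4.68% of all lines). The median change was -0.13 for members and -0.019 for all lines. Lower in 2iL-F were Phf19 (-1.72 ± 0.12), Setd6 (-1.51 ± 0.068), Hdac11 (-1.27 ± 0.067), Chd5 (-1.01 ± 0.090), Ezh2 (-0.95 ± 0.059) and Ezh1 (-0.94 ± 0.094). By class, 0 rose and 3 fell of 4 in PRC2, 1 rose and 2 fell of 6 in PRC1, 2 rose and 0 fell of 4 in H3K4 methylation, 0 rose and 3 fell of 3 other methyltransferases and 2 rose and 0 fell of 4 arginine methyltransferases. In HP1 0 rose and 3 fell of 3, among demethylases 1 rose and 5 fell of 8, among acetyltransferases 2 rose and 5 fell of 7, among classical deacetylases 0 rose and 4 fell of 8 and among sirtuins 3 rose and 3 fell of 6. Among PHD finger genes 1 rose and 4 fell of 8, among SWI/SNF and related genes 4 rose and 2 fell of 10 and among CHD genes 1 rose and 2 fell of 4. The counts include smaller changes, among them those of Suz12 (-0.20 ± 0.074, adjusted p = 0.0452), Cbx5, Hdac4, Kat2b, Pcgf2, Phf10, Phf21b, Phf7, Smarca5, Smarcb1 and Smarcd1. Higher in 2iL-F were Smarcd3 (1.19 ± 0.066), Prmt8 (1.11 ± 0.14), Prmt2 (0.96 ± 0.11), Kmt2e (0.64 ± 0.11) and Smarcc2 (0.59 ± 0.057). Calls lost in fits without 1 library were those of Suz12 in 2iL-F (9 of 10 fits, adjusted p up to 0.23), Cbx5 in 2iL-F (2 of 10 fits, adjusted p up to 0.109), Hdac4 in 2iL-F (1 of 10 fits, adjusted p up to 0.0526), Kat2b in 2iL-F (7 of 10 fits, adjusted p up to 0.24), Pcgf2 in 2iL-F (2 of 10 fits, adjusted p up to 0.198), Phf10 in 2iL-F (3 of 10 fits, adjusted p up to 0.129), Phf21b in 2iL-F (1 of 10 fits, adjusted p up to 0.0731), Phf7 in 2iL-F (4 of 10 fits, adjusted p up to 0.146), Smarca5 in 2iL-F (1 of 10 fits, adjusted p up to 0.0615), Smarcb1 in 2iL-F (9 of 10 fits, adjusted p up to 0.223) and Smarcd1 in 2iL-F (3 of 10 fits, adjusted p up to 0.141).

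Setd6 and Hdac11, high in 2iL, thus had smaller or uncalled changes from SL in 2iL-F. Setd6 had 36.7 and 37.4 TPM in 2iL-F, 107 and 107 in 2iL and 27.8 and 27.8 in SL. Wdr5, at -0.11 ± 0.060, did not pass between the labels, nor did Chd1 (0.091 ± 0.062), Hdac1 (0.055 ± 0.039), Hdac2 (0.069 ± 0.063) and Prmt5 (-0.037 ± 0.044). The fibroblast marker sum was 5190.1 and 4977 TPM in 2iL-F and 849 and 893 in 2iL, and all 30 markers passed as higher. Its part in the differences of the members was not tested.

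**Figure D5:**
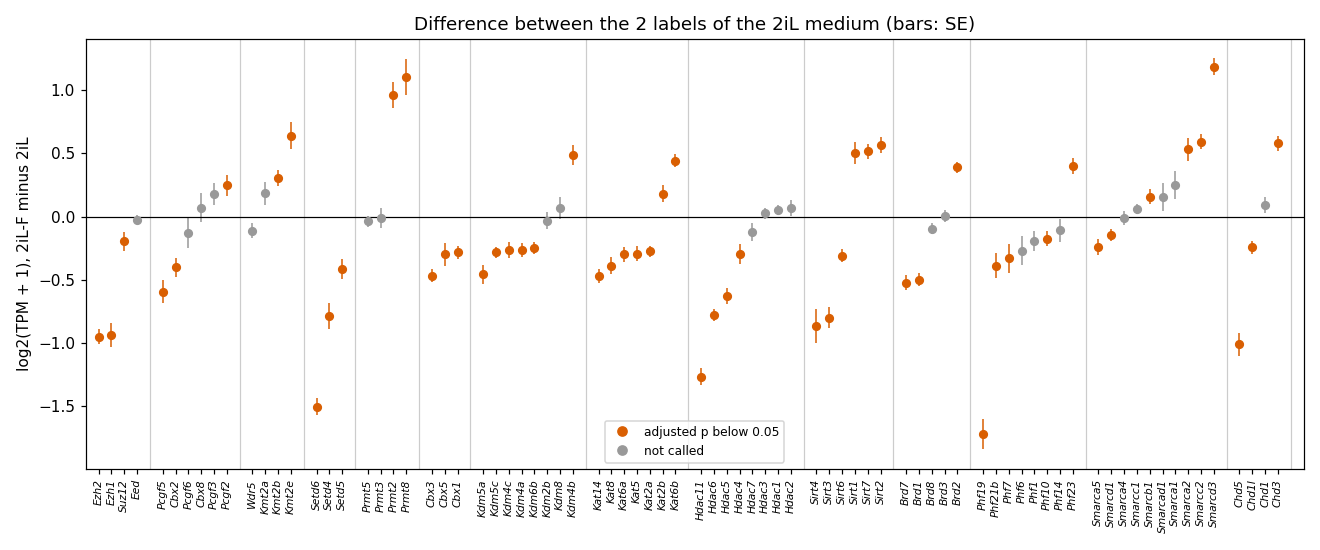
Difference in log2(TPM + 1), 2iL-F minus 2iL, for each member reported here (point, with SE), sorted within classes parted by grey lines. Orange points passed at an adjusted p below 0.05. Phf19 and Setd6 are lowest, and Smarcd3 and Prmt8 highest.

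A2iL against 2iL-F compares a Src inhibitor with a MEK inhibitor in the same base medium, between libraries that both carried fibroblast transcripts (3140.2 and 3064 TPM in A2iL and 5190.1 and 4977 in 2iL-F). They also differ in the feeder label. In A2iL 16 rose and 25 fell of 81 members, beside 22.2% and 23% of all lines, with 50.6% passing in either direction, beside 45.3%. Changes of at least 1 numbered 0 higher and 2 lower (3.86% and 4.28% of all lines). Prmt8 (-1.70 ± 0.14), Cbx2 (-1.02 ± 0.077, adjusted p = 1.29e-05) and Cbx8 (-0.90 ± 0.12) were the members with the largest falls. Suz12 (-0.46 ± 0.074), Kmt2b (-0.44 ± 0.065), Wdr5 (-0.41 ± 0.060), Kdm2b (-0.40 ± 0.068), Smarca5 (-0.36 ± 0.064), Hdac6 (-0.35 ± 0.050) and Ezh2 (-0.24 ± 0.059) were lower too. Phf6 (0.98 ± 0.12), Chd5 (0.81 ± 0.090), Phf7 (0.70 ± 0.11), Smarca1 (0.66 ± 0.11) and Prmt2 (0.62 ± 0.11) were higher. For Setd6 (-0.027 ± 0.068) and Hdac2 (-0.020 ± 0.063) the difference did not pass. Leaving out 1 library ended the call for Ezh2 in A2iL (2 of 10 fits, adjusted p up to 0.0599).

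A list of 99 other chromatin genes outside these families gave a setting for the members. Of these, 65 stand in lines whose symbols are used, and 61 were tested. Of the 61, 12 rose and 17 fell in A2iL, 15 rose and 20 fell in 2iL-F, 23 rose and 22 fell in 2iL and 22 rose and 18 fell in LCDM. In either direction 47.5%, 57.4%, 73.8% and 65.6% passed, at or below the 53.8%, 65.4%, 77.7% and 65.9% of all lines in A2iL, 2iL-F, 2iL and LCDM. Medians were -0.065, -0.010, 0.050 and 0.070 in A2iL, 2iL-F, 2iL and LCDM. In 2iL, 4 of the 61 rose and 3 fell by at least 1, beside 12.9% and 16.5% of all lines. The genes named next had large changes, and not every gene with a large change is named. Sin3b had 55.9 and 56.7 TPM in 2iL against 24.0 and 24.5 in SL. Baz2b had 6.44 and 7.79 TPM in 2iL against 2.75 and 3.00 in SL. Yaf2, a PRC1 subunit, fell in all 4, by 1.07 in A2iL, 1.55 in 2iL-F, 1.77 in 2iL and 1.30 in LCDM. Ash2l, which sits beside Wdr5 in the H3K4 methyltransferase complexes, had 65.8 and 66.2 TPM in A2iL, 91.1 and 91.8 in 2iL-F, 143 and 145 in 2iL, 82.6 and 81.1 in LCDM, against 52.3 and 53.3 in SL, and changed by 1.43 ± 0.038 in 2iL. Rbbp5, of the same core, rose in all 4, most in 2iL (1.05 ± 0.064). Baz1a, a partner of Smarca5, fell in all 4, most in A2iL (-1.81 ± 0.092). Phc2, a PRC1 subunit, fell in all 4, most in 2iL (-1.61 ± 0.058) and 2iL-F (-1.31 ± 0.058). Arid1a, which defines a SWI/SNF form, had 89.5 and 93.6 TPM in A2iL, 92.7 and 84.7 in 2iL-F, 44.7 and 45.8 in 2iL, 94.3 and 97.7 in LCDM, against 128 and 133 in SL, lowest in 2iL (-1.51 ± 0.054).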

How the data were processed

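RNA-seq values of 10 libraries, 2 in each of 5 culture conditions, were used as deposited. Per the submitters' processing notes, the tools were Bowtie2, RSEM, DESeq2 and R 3.4.2, with mm10 as the build, and no other version is named. The authors deposited TPM, and the listed values of a library sum to 71.0% to 73.0% of the full TPM total. TPM keep no read number, so depth is unknown and no interval from counts is given. Kits were a Qiagen RNA kit and NEBNext Ultra, per the labels' protocols.

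Symbols are used only in the first 9865 of 20494 lines. There 97.4% of 234 symbols of broadly expressed families and 8.33% of 36 of restricted families had at least 5 TPM; in the later lines it was 47.9% of 144 and 36.0% of 286. The members, classes and lists were chosen with earlier results of these data known. Log2(TPM + 1) values of lines with at least 1 TPM in 2 or more libraries entered a fit by limma 3.58.1 (R 4.3.3) (a mean per condition, all 10 libraries, eBayes with trend, 5 residual degrees of freedom), with two-sided tests and Benjamini-Hochberg adjustment over the 14578 lines within each of 6 comparisons and an F test. The fit was tested on simulated data with independent noise in each library. This cannot show whether the p-values hold if the 2 libraries of a condition are technical repeats. Any member could be named, and 1 is counted but not reported here. Values per library are given for PRC2, for members called with a log2 change of at least 1, 5 TPM or more in whichever group was higher and groups apart, and for the highest member of a class; further members were added after their values were seen. Also tried were 2 other scalings, a filter at 5 TPM or none, a pseudocount of 0.1, only the 4 libraries compared, only the first 9865 lines, the replicate number as a block and each library left out; a fit leaving out the 4 libraries of 2iL and 2iL-F was added after seeing the data. Coordinates are of mm10, from GENCODE M21. Python 3.11.15, pandas 2.3.3, numpy 2.4.6 and matplotlib 3.10.9 made the tables and figures.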

Additional observations from a re-analysis of the deposited data

Results flagged for a closer look

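Under the 2 labels of the 2iL medium, 5 members passed in opposite directions against SL, and the difference between the labels, tested in the limma fit, passed as well. Both contrasts share the 2 SL libraries. For Phf19 the changes were -0.39 in 2iL-F and 1.33 in 2iL, and -1.72 ± 0.12 between them (adjusted p = 4.07e-06). Smarcd3 gave 0.29 in 2iL-F and -0.90 in 2iL, and 1.19 ± 0.066 between them (adjusted p = 1.13e-06). The values of Chd5 were -0.66 in 2iL-F and 0.35 in 2iL, and -1.01 ± 0.090 between them (adjusted p = 2.01e-05), from 1.29 and 1.10 TPM in 2iL-F and 3.61 and 3.23 in 2iL. Those of Setd4 were -0.45 in 2iL-F and 0.34 in 2iL, and -0.79 ± 0.10 between them (adjusted p = 0.000196). Kat8 had -0.17 in 2iL-F and 0.22 in 2iL, and -0.39 ± 0.065 between them (adjusted p = 0.00086), the smallest of the 5. The differences between the labels kept their calls in every alternative, but the opposite changes from SL of 3 members did not. The fall of Phf19 in 2iL-F was lost without SL replicate 5 or without 2iL-F replicate 5 (adjusted p up to 0.0999), and the rise of Setd4 in 2iL without SL replicate 3 or 2iL replicate 3 (up to 0.0747). Kat8 lost its fall in 2iL-F in 6 of the 10 fits that left out 1 library and under both other scalings (up to 0.196), and its rise in 2iL without SL replicate 5 or 2iL replicate 5 (up to 0.0686). The fibroblast marker sum differed between the same libraries, at 5190.1 and 4977 TPM in 2iL-F and 849 and 893 in 2iL, and its part in these differences was not tested.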

How the results depend on the processing

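No called change of a member reversed under any alternative run, and each total of members changed stayed within 1.5 times its reported value. By direction, the 19 members lower in A2iL than in SL became 12 without A2iL replicate 3. With each library left out in turn, the count was 33 to 52 for A2iL against SL, 44 to 57 for 2iL-F, 56 to 63 for 2iL, 48 to 63 for LCDM, 47 to 57 for 2iL-F against 2iL and 31 to 48 for A2iL against 2iL-F. Smaller called changes were less stable: leaving out some 1 library ended 18 calls in A2iL, 14 in 2iL-F, 7 in 2iL and 16 in LCDM against SL, and 12 in each of the other 2 comparisons. Every called change of at least 1 on the log2 scale kept its call in each alternative that tested the gene. Median-of-ratios scaling ended the calls against SL of Eed, Kat8, Cbx5, Smarcc1 and Smarcd1 in 2iL-F and of Eed and Hdac3 in 2iL. It also ended those of Cbx3 and Smarcd1 in LCDM and of Phf7, Phf21b and Smarcc2 in A2iL. Quantile normalisation ended those of Eed, Kat8 and Cbx5 in 2iL-F, Hdac7 and Phf7 in LCDM, and Phf7, Smarca5 and Smarcc2 in A2iL. Of 486 single values, median-of-ratios scaling lost 14 calls and added 29, quantile normalisation lost 13 and added 35, a pseudocount of 0.1 lost 3, and the 10 fits without 1 library together lost 259 and added 68. The replicate numbers 3 and 5 are not explained in the labels. Differences between the 2 libraries correlated across genes at -0.131 to 0.075 over 10 pairs of conditions. This shows no strong common shift over all genes, but cannot tell whether libraries of the same number shared a batch. With the replicate block, 42 members changed in A2iL, 52 in 2iL-F, 60 in 2iL and 57 in LCDM against SL, 54 in 2iL-F against 2iL and 40 in A2iL against 2iL-F. Leaving out the 4 libraries of 2iL and 2iL-F, 51 changed in A2iL and 61 in LCDM against SL. Depth is unknown, so its limit on members with few TPM, such as Cbx8, cannot be given.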
